A study of Mus musculus with 6 samples.

Results

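The genes of the proteasome were compared between SS-treated and control C0321 tumors, with most attention to the immunoproteasome. Members were all genes of the deposited count table whose symbol starts with Psma, Psmb, Psmc, Psmd, Psme, Psmf or Psmg followed by a digit, which gave 47 of 13730 genes. RNA sequencing covered 3 control tumors and 3 tumors of mice that received SS (sulindac sulfide, the active metabolite of the anti-inflammatory drug sulindac) by mouth at 60 mg/kg each day for 14 days, starting when a mass could be felt. All 6 tumors grew from the C0321 line, a transplantable triple-negative breast cancer line derived from an Lfng-/- mouse, after its cells were injected in Matrigel into the mammary fat pad of female FVB mice aged 6 to 10 weeks. The control mice are described as given vehicle in the results of the published study and saline in the series text, and the sample labels name the drug as a sulfate. Each group therefore rests on a single implanted line in a host with its own immune system, and bulk tumor RNA holds host cells as well. The labels do not say that each library came from a separate mouse, so that the tests measure the spread between these samples.

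The proteasome is the protease that degrades ubiquitin-tagged proteins. Its 20S core is a barrel of alpha and beta rings in which Psmb5, Psmb6 and Psmb7 carry the active sites, and its 19S cap, built of ATPases (Psmc) and non-ATPases (Psmd), binds, unfolds and feeds in the substrate. Interferon-gamma induces Psmb8, Psmb9 and Psmb10, which replace Psmb5, Psmb6 and Psmb7 in newly made cores to give the immunoproteasome, and also the PA28 activator of Psme1 and Psme2. Both changes favor peptides that fit MHC class I, and the immunoproteasome is abundant in leukocytes.

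Of the 47 members, 31 were constitutive subunits of the core and cap, 5 were the interferon-inducible genes Psmb8, Psmb9, Psmb10, Psme1 and Psme2, and the rest were assembly chaperones, other activators, the inhibitor Psmf1 and symbols that name no somatic subunit. The table held 12314368, 20486368 and 24441522 counts for control tumors 1, 2 and 3, and 13696665, 8468914 and 12071346 counts for SS tumors 1, 2 and 3. Levels are given as CPM, the counts scaled to a common library size after TMM scaling. The filter on low counts kept 45 members among 10902 genes. Psma8, the alpha subunit of germ cells, had 0, 1 and 6 counts in control tumors against 0, 0 and 9 after SS. Psmc3ip, a recombination factor named for binding Psmc3, had 1, 2 and 4 counts against 7, 1 and 0, and neither was tested.

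Sequences are shown first for the genes on which the comparison turns. Psmb8 and Psmb9 lie close together on chromosome 17 at chr17:34198195-34201455 and chr17:34182099-34187331, and Psme1 and Psme2 on chromosome 14 at chr14:55578494-55581528 and chr14:55587440-55591102, all on mm10. The following promoters, from RefSeq on GRCm38.p6, are those of Psmb8 (chr17:34197945-34198244, plus strand), Psmb9 (chr17:34187281-34187580, minus strand) and Psme1 (chr14:55578244-55578543, plus strand), as genes of the inducible class, and of Psmb5 (chr14:54617946-54618245, minus strand), which Psmb8 replaces. Each runs from 250 bases before to 50 bases after the start, and capitals mark the motifs named below.
Psmb8: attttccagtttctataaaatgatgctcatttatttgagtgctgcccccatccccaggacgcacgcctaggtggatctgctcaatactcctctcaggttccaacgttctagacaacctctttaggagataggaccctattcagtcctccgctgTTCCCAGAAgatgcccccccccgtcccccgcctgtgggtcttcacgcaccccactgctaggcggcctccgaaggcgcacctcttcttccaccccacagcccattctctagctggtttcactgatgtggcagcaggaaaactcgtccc
Psmb9: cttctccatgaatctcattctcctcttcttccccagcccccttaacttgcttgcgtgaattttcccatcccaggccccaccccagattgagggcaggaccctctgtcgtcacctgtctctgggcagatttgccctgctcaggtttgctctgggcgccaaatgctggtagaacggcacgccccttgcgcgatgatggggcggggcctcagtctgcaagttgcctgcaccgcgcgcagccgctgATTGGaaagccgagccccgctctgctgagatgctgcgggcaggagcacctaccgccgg
Psme1: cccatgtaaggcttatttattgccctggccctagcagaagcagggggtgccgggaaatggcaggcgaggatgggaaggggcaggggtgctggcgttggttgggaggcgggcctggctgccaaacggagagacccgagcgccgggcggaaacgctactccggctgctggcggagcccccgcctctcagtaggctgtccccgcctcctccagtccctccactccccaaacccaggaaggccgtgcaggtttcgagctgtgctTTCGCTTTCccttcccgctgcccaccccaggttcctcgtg
Psmb5: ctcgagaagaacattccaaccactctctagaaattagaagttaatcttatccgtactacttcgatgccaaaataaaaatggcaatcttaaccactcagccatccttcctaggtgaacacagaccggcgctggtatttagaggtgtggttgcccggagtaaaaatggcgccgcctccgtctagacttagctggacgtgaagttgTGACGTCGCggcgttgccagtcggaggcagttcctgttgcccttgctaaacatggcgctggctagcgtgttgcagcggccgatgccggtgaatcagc

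Promoters of 39 of the 47 members were in the table. On either strand they were searched for TTCNNNGAA (GAS, the interferon-gamma-activated site), GAAANNGAA (the core of the interferon-stimulated response element), TGACNNNGC (the core of the antioxidant response element, bound by Nrf1 and Nrf2) and CCAAT (the NF-Y box). In the members' 42 promoters a single pair of matches overlapped, in Psmd14. Psmb8 held a GAS match that began 97 bases before the start and Psme1 an interferon-stimulated match that began 10 bases after it, while the window of Psmb9 held CCAAT on the other strand and neither interferon motif. Over the 6 promoters of the 5 inducible members, each interferon motif was in 1 (16.7%), and those of Psmb10 and Psme2 held none of the 4 motifs. Psmb5 held an antioxidant match 47 bases before the start. Over the 27 promoters of constitutive subunits, 14.8% held the antioxidant core and 37.0% held CCAAT, against 12.4% and 37.4% of all 32851 promoters. GAS was in 3 of the members' 42 promoters (7.14%) and in 8.30% of all, and the interferon-stimulated core in 6 of 42 (14.3%) and in 8.56% of all. A match of letters is not a binding site.

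None of the 45 tested members passed the adjusted threshold (edgeR quasi-likelihood test, Benjamini-Hochberg adjusted p between 0.771 and 0.982), and neither did any other gene, so that the background was 0% called. DESeq2 called 35 of 10893 genes and no member, and it gave no adjusted p for Psmb9, Psmb10, Psmd9 and Psmg2. At an unadjusted p under 0.05 edgeR gave 693 genes. Among members it gave 0 that were higher in SS tumors, where the background was 3.19%, and 1 that was lower, Psmd5, where the background was 3.16%. The groups did not overlap for 2 members that were higher in SS tumors, Psma6 and Psmb7 (background 6.51%), and for 5 that were lower, Psmc2, Psmc6, Psmd5, Psmd10 and Psmf1 (background 6.4%). These shares are small counts out of 45. With other scalings 1 to 2 members were higher and 6 to 8 lower without overlap, and no background is given for those.

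**Figure D1:**
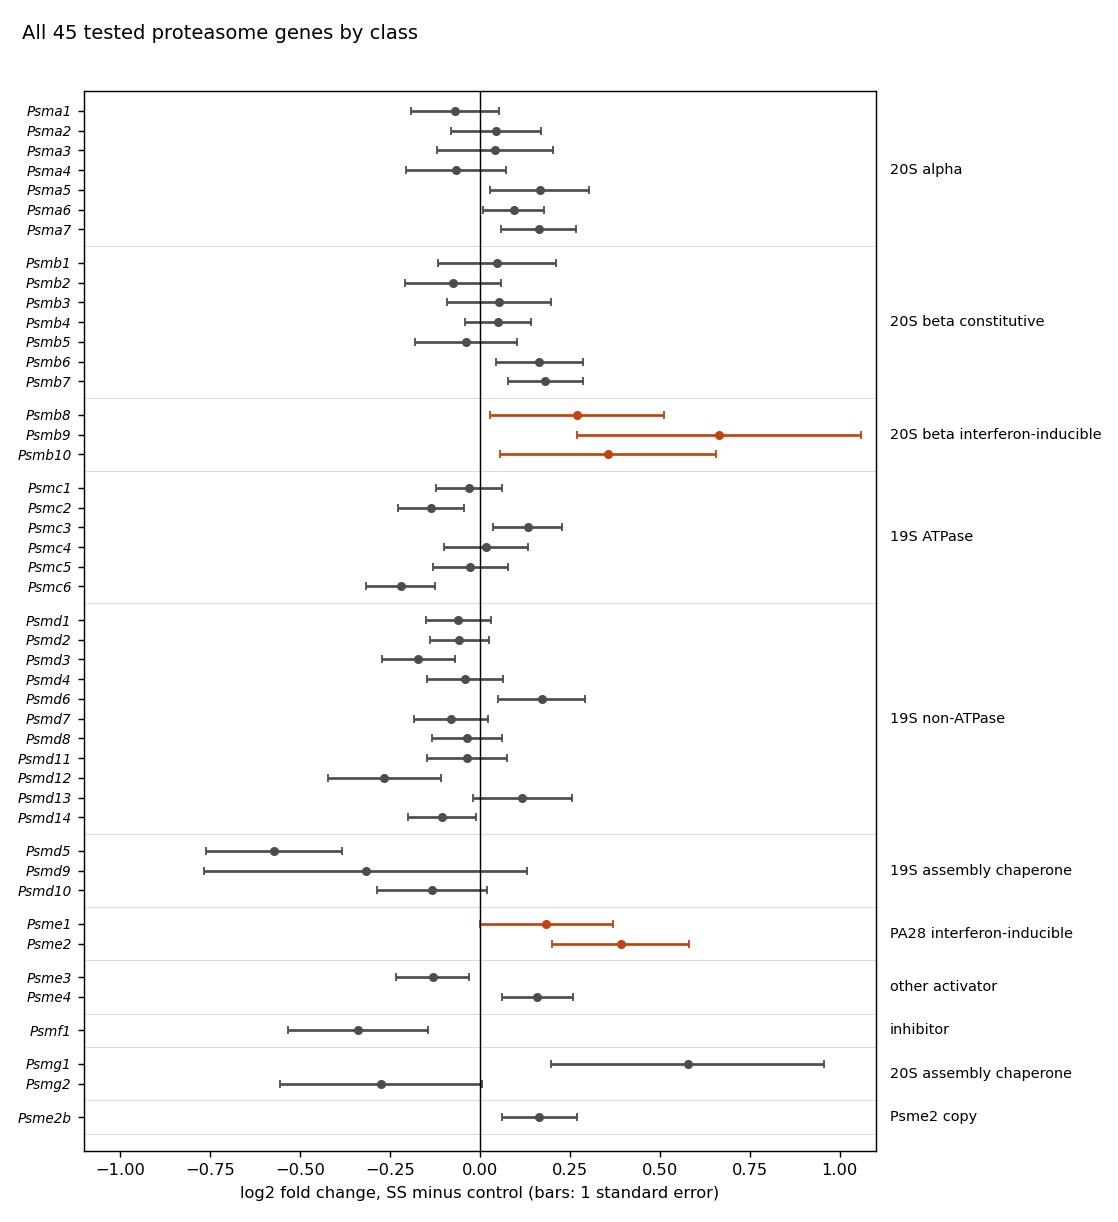
The log2 fold change (SS minus control) of the 45 tested members is plotted by class, with bars of 1 standard error and the interferon-inducible classes in orange. The 31 constitutive subunits lie between -0.27 and 0.18, the 5 inducible members are all above 0, and the 3 chaperones of the 19S cap are all below 0.

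The constitutive proteasome was close to the same level in both groups. The 31 subunits of the core and cap had log2 fold changes between -0.27 and 0.18 with a median of -0.030, 14 above 0 and 17 below. With single tumors left out, the sign of this median was not stable, with values from -0.044 (control tumor 3) to 0.016 (control tumor 2) and 0.011 without SS tumor 2. Their median size of change was 0.070 on the log2 scale against 0.19 over all 10902 genes, and their median coefficient of variation over the control tumors was 6.31% against 17.0%. For 30 of the 31, the 95% interval of the fold change excluded a 1.5-fold change in either direction. The exception was Psmd12, a scaffold subunit of the lid, with 28.2, 28.7 and 31.8 CPM in control tumors and 21.2, 24.3 and 28.3 CPM in SS tumors (log2 fold change -0.27, SE 0.16, and -0.17 without SS tumor 1).

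The 3 most abundant members were Psmd2, Psma6 and Psmc3. Psmd2, the large scaffold of the 19S base, was at 408, 422 and 424 CPM in control tumors and at 396, 398 and 411 CPM in SS tumors, with a log2 fold change of -0.058 (SE 0.082) and a 95% interval from -0.25 to 0.13. Psma6, an alpha-ring subunit, was at 336, 356 and 332 CPM against 367, 358 and 368 CPM, with a log2 fold change of 0.094 (SE 0.084). Psmc3, an ATPase of the base, was at 281, 318 and 277 CPM against 305, 328 and 328 CPM, with a log2 fold change of 0.13 (SE 0.10). Of these, Psma6 was the gene whose groups did not overlap, with the highest control tumor and the lowest SS tumor less than 2 CPM apart.

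The medians of the core and cap classes were all near 0. The alpha ring had 5 of 7 members above 0 with a median of 0.044 on the log2 scale, and the constitutive beta ring 5 of 7 with a median of 0.050. The ATPases had 4 of 6 below 0 with a median of -0.029, and the non-ATPases of the cap 9 of 11 below 0 with a median of -0.058. Psmc6, an ATPase, was a cap subunit whose groups did not overlap, with 192, 186 and 207 CPM in control tumors and 167, 177 and 157 CPM in SS tumors (log2 fold change -0.22, SE 0.10, edgeR adjusted p = 0.771). Every SS tumor was below every control tumor for that gene. Differences between the classes were not tested. With single tumors left out, the medians lay between -0.021 (SS tumor 1) and 0.12 (control tumor 2) for the alpha ring, 0.013 (control tumor 3) and 0.078 (control tumor 2) for the beta ring, -0.063 (SS tumor 1) and -0.0037 (control tumor 2) for the ATPases, and -0.080 (SS tumor 1) and -0.029 (control tumor 1) for the non-ATPases.

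The level of subunits that enter the complex in equal numbers was not equal. Per kb of transcript, the 14 constitutive core subunits ran from 7.96 CPM per kb for Psmb1 and 10.8 for Psma3 to 354 for Psma6, with a median of 88.3, a 44.4-fold range between the lowest and the highest. The 6 ATPases ran from 52.2 (Psmc5) to 187 CPM per kb (Psmc3), a 3.59-fold range. The 11 non-ATPases ran from 14.2 (Psmd12) to 232 CPM per kb (Psmd4), a 16.3-fold range. Control and SS tumors had nearly the same values within each of these classes, so that the spread was between genes. Whether reads or transcripts of low genes such as Psmb1 and Psma3 are missing from the deposited table could not be checked, so these values are levels in that table. Pomp, the maturation protein of the 20S core, which the symbol rule does not take, was listed at 1.03 to 1.96 CPM, to which the same limit applies.

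**Figure D2:**
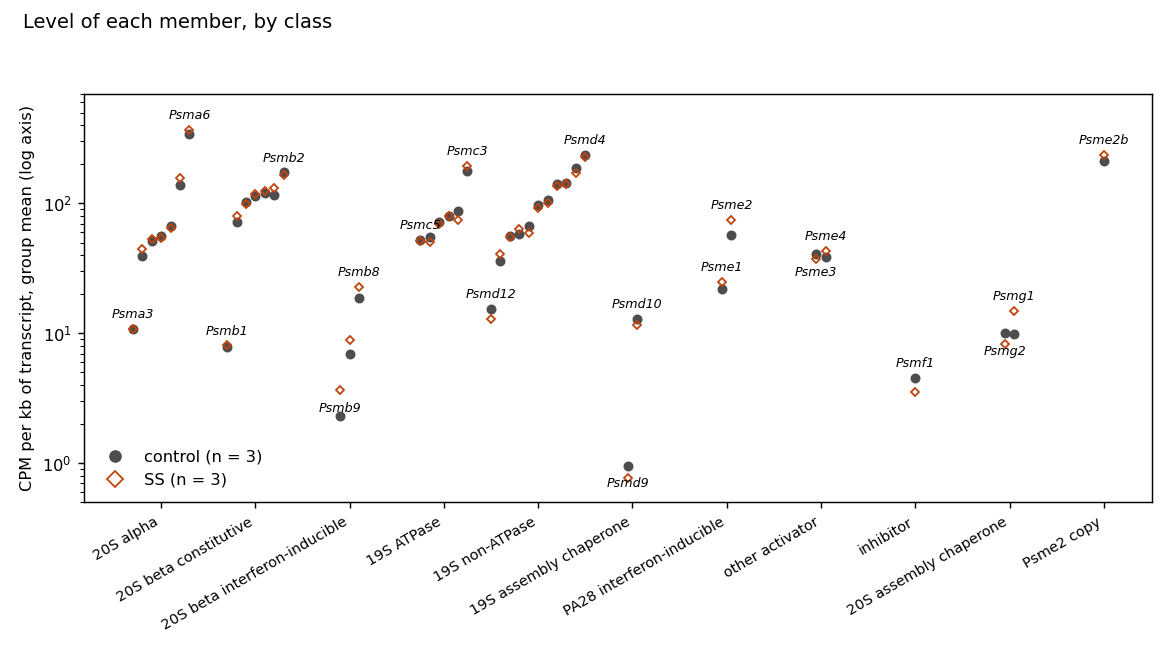
Mean CPM per kb of transcript (log axis) in control tumors (grey circles, n = 3) and SS tumors (orange diamonds, n = 3) is plotted for 44 members by class, without Psmd5, for which 1 transcript had no length, and without Psma8 and Psmc3ip. Psma3 and Psmb1 lie far below the other core subunits, and the inducible beta subunits below most constitutive ones.

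The 5 interferon-inducible members had positive fold changes, between 0.18 and 0.67 on the log2 scale, and their median was 0.36 against -0.0013 over all genes tested. Without SS tumor 1 this median was 0.17, without SS tumor 3 it was 0.49, and with Psme2 and its copy Psme2b summed it was 0.27. None reached an unadjusted p under 0.05, and in all 5 the groups overlapped. Psmb8, the counterpart of the chymotrypsin-like subunit Psmb5, was at 31.9, 30.6 and 29.3 CPM in control tumors and at 50.4, 35.4 and 24.8 CPM in SS tumors. SS tumors 1 and 2 were above all control tumors and SS tumor 3 was below them all. Its log2 fold change was 0.27 (SE 0.24, 95% interval from -0.29 to 0.83, edgeR adjusted p = 0.890). Without SS tumor 1 this value was -0.029, and without SS tumor 3 it was 0.49 with an unadjusted edgeR p of 0.037.

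Psmb9, the counterpart of the caspase-like subunit Psmb6, was the lowest of these genes. It was at 4.03, 2.95 and 2.42 CPM in control tumors and at 7.26, 3.82 and 3.72 CPM in SS tumors. SS tumor 1 stood apart and the other SS tumors fell below control tumor 1. The log2 fold change of 0.67 (SE 0.40) was the largest of all members, with a 95% interval from -0.25 to 1.58 and an edgeR adjusted p of 0.826. It was 0.27 without SS tumor 1 and 0.88 without control tumor 1.

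Psmb10, the counterpart of the trypsin-like subunit Psmb7, was at 10.0, 10.2 and 7.02 CPM in control tumors and at 13.6, 14.1 and 7.27 CPM in SS tumors. SS tumors 1 and 2 were above all control tumors, and SS tumor 3 was close to control tumor 3. On the log2 scale the fold change was 0.36 (SE 0.30, 95% interval from -0.34 to 1.05, edgeR adjusted p = 0.890), and without SS tumor 3 it was 0.60 with an unadjusted edgeR p of 0.045. It was 0.20 without control tumor 3 and also 0.20 without SS tumor 2.

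**Figure D3:**
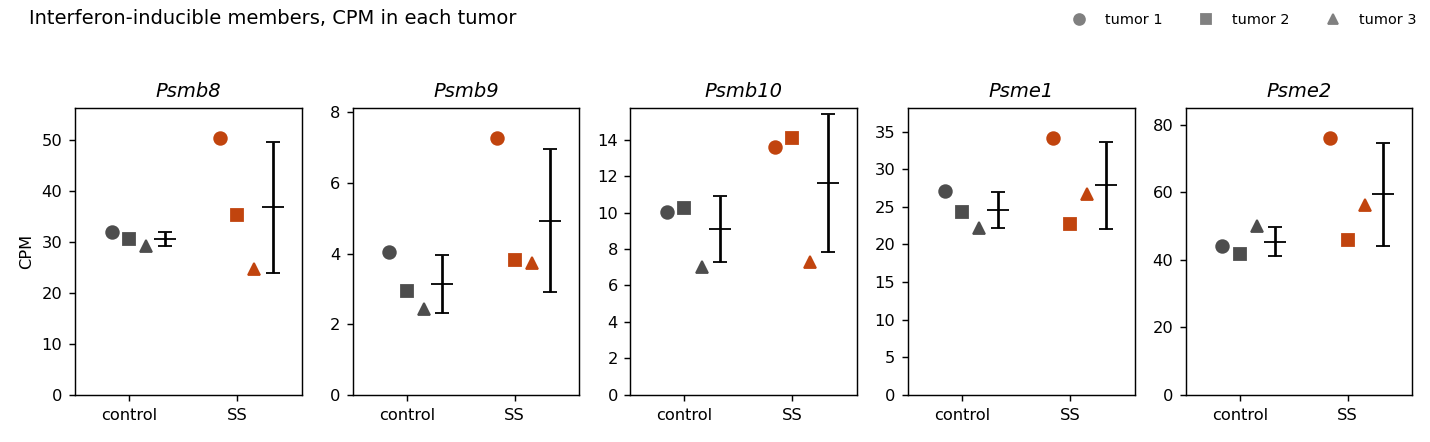
CPM of Psmb8, Psmb9, Psmb10, Psme1 and Psme2 is plotted for each tumor (circle, square and triangle for tumors 1, 2 and 3 of control in grey and SS in orange), with the mean and SD of each group (n = 3) in black. SS tumor 1 is the highest tumor for 4 of the 5 genes, and SS tumor 2 for Psmb10.

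Psme1, the alpha subunit of the PA28 activator, was at 27.1, 24.4 and 22.2 CPM in control tumors and at 34.1, 22.8 and 26.7 CPM in SS tumors. SS tumor 1 was the highest and the other SS tumors lay within the range of the controls. Its log2 fold change was 0.18 (SE 0.19, 95% interval from -0.24 to 0.61), and it was 0.0098 without SS tumor 1, 0.12 without control tumor 3 and 0.31 without SS tumor 2. Psme2, the beta subunit, was at 43.9, 41.8 and 50.1 CPM against 75.9, 45.8 and 56.3 CPM. SS tumors 1 and 3 were above all control tumors and SS tumor 2 was among them. The log2 fold change was 0.39 (SE 0.19, 95% interval from -0.05 to 0.83, edgeR adjusted p = 0.792). Without SS tumor 1 it was 0.17, and without SS tumor 2 it was 0.54 with an unadjusted edgeR p of 0.017.

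The 4 genes other than Psmb10 had their highest value in SS tumor 1, as 17.5% of all tested genes did. Over the 10 pairs of these 5 genes, the median correlation of log2 CPM across the 6 tumors was 0.70. It was 0.42 over the 21 pairs of the alpha ring, 0.34 over the constitutive beta ring, 0.11 over the ATPases and 0.06 over the non-ATPases. These correlations describe 6 libraries that the genes share.

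Psme2 values depend on a copy of the gene. Psme2b lies on another chromosome at chr11:48945352-48946411 and its transcript matched that of Psme2 over 716 aligned bases at 99.3% identity, with 5 differing bases. Of all stretches of 75 bases, the read length, 52.8% of those of Psme2 also occurred in Psme2b. The coding stretch with the most differences, at bases 445 to 519 of the Psme2 coding sequence, is shown for both genes because it holds 3 of the 5 differing bases, which are in capitals, from GENCODE transcripts on GRCm38.
Psme2: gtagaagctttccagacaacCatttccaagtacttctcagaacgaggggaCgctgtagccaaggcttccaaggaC
Psme2b: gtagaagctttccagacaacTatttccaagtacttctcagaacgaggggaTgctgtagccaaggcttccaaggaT

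Psme2b took most of the counts of the pair. It was at 180, 180 and 171 CPM in control tumors and at 219, 177 and 199 CPM in SS tumors, which was 77.3% to 81.1% of the pair in control tumors and 74.2% to 79.5% in SS tumors. How the counting split reads between them is not given in the sources used here, so the level of either gene alone is uncertain. Summed, the pair was at 224, 221 and 221 CPM against 295, 223 and 256 CPM, with a log2 fold change of 0.21. SS tumors 1 and 3 were above all control tumors, and SS tumor 2 lay among them.

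The ratio of each inducible subunit to the one it replaces does not depend on library scaling. Psmb8 counts were 34.8%, 30.4% and 35.5% of Psmb5 counts in control tumors and 48.6%, 46.1% and 28.4% in SS tumors. Psmb9 was 6.59%, 5.03% and 4.69% of Psmb6 against 11.1%, 5.55% and 6.38%. Psmb10 was 8.26%, 7.38% and 4.86% of Psmb7 against 8.47%, 9.69% and 4.74%. In each pair the groups overlapped, and SS tumor 3 had the lowest of all 6 values for Psmb8 and Psmb10. The mean log2 ratio differed by 0.25 for Psmb8 (exact permutation p = 0.4, two-sided), by 0.45 for Psmb9 (exact permutation p = 0.3) and by 0.13 for Psmb10 (exact permutation p = 0.7), where 0.1 is the smallest p that 3 against 3 tumors can give. When each tumor was left out in turn, the difference lay between 0.11 (SS tumor 1 left out) and 0.50 (SS tumor 3) for Psmb8, between 0.15 (SS tumor 1) and 0.65 (SS tumor 2) for Psmb9, and between -0.097 (control tumor 3) and 0.44 (SS tumor 3) for Psmb10. Set against the mean of all constitutive core subunits in place of the single counterpart, the difference was 0.16 for Psmb8, 0.56 for Psmb9 and 0.26 for Psmb10.

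In the deposited table the constitutive partners were more abundant, with the limit on the levels of low genes given above. Psmb5 was at 91.8, 101 and 82.5 CPM in control tumors and at 104, 76.8 and 87.1 CPM in SS tumors, with a log2 fold change of -0.039 (SE 0.14), which was 0.034 without control tumor 2 and 0.057 without SS tumor 2. Psmb6 was at 61.2, 58.6 and 51.6 CPM against 65.1, 68.8 and 58.3 CPM, with a log2 fold change of 0.17 (SE 0.12), which was 0.098 without control tumor 3. Psmb7 was at 121, 139 and 144 CPM against 160, 145 and 153 CPM, with a log2 fold change of 0.18 (SE 0.10), which was 0.11 without control tumor 1, and every SS tumor was above every control tumor. Per kb of transcript, the inducible subunits made up 9.64%, 8.63% and 8.21% of the counts of the 6 catalytic subunits in control tumors and 12.2%, 10.6% and 7.22% in SS tumors. The SS group thus held both the highest and the lowest share.

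**Figure D4:**
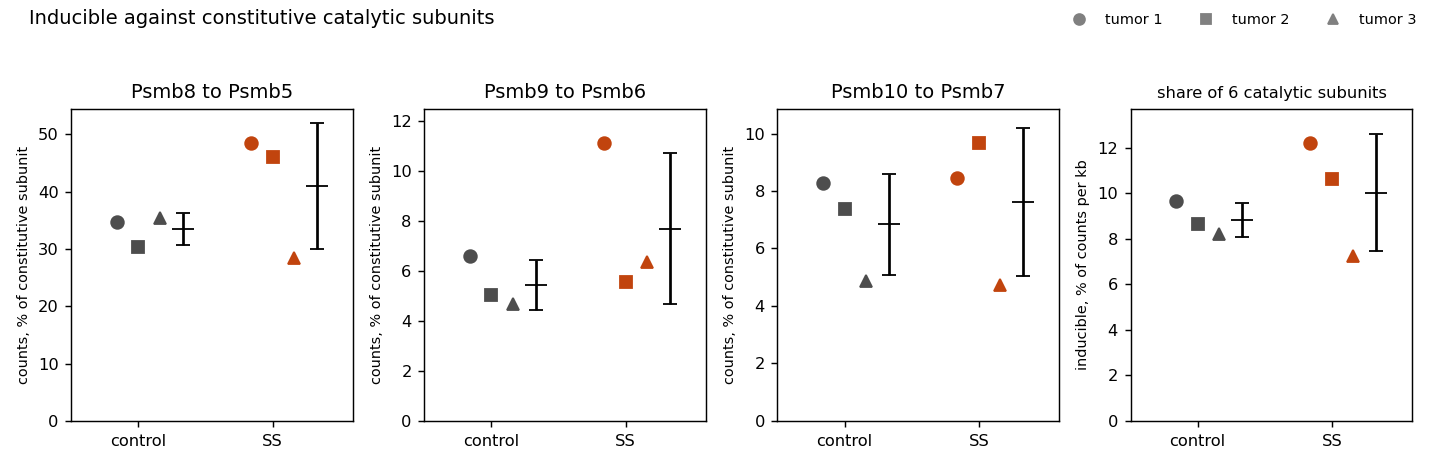
Counts of Psmb8, Psmb9 and Psmb10 as a percentage of those of Psmb5, Psmb6 and Psmb7, and the inducible share of the 6 catalytic subunits per kb, are plotted for each tumor with the mean and SD of each group (n = 3). In the SS group the ratio of Psmb8 to Psmb5 runs from 28.4% to 48.6%, on both sides of the control range of 30.4% to 35.5%.

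The lowest fold changes among members were those of Psmd5 and the inhibitor Psmf1. Psmd5, which holds the ATPases Psmc1 and Psmc2 while the 19S base is assembled and is released from the finished complex, was at 17.6, 13.0 and 14.4 CPM in control tumors and at 10.8, 9.42 and 9.97 CPM in SS tumors. Every SS tumor was below every control tumor. The log2 fold change was -0.57 (SE 0.19, 95% interval from -1.01 to -0.13), with an unadjusted p of 0.017 and an edgeR adjusted p of 0.771. It lay between -0.67 and -0.44 when each tumor was left out in turn, and without control tumor 1 its unadjusted p was no longer under 0.05.

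The other chaperones of the 19S base were less clear. Psmd9 was at 2.85, 1.62 and 3.0 CPM in control tumors and at 1.67, 2.74 and 1.61 CPM in SS tumors, with a log2 fold change of -0.32 (SE 0.45), and its groups overlapped. Its value ran from -0.60 without SS tumor 2 to -0.15 without control tumor 3. Psmd10, known as gankyrin, was at 20.3, 17.2 and 17.5 CPM against 16.4, 16.7 and 17.0 CPM, with a log2 fold change of -0.13 (SE 0.15), and the groups were parted by less than 1 CPM. Psmf1, the inhibitor PI31, was at 19.2, 16.4 and 16.0 CPM against 15.5, 14.4 and 10.8 CPM, with a log2 fold change of -0.34 (SE 0.19), which was -0.20 without SS tumor 3. Every SS tumor was below every control tumor for Psmf1.

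The chaperones of the 20S core did not share a direction. Psmg1 was at 5.93, 15.4 and 9.81 CPM in control tumors and at 17.1, 10.0 and 19.4 CPM in SS tumors, with a log2 fold change of 0.58 (SE 0.38), and its partner Psmg2 was at 7.75, 13.7 and 10.3 CPM against 7.62, 11.2 and 7.61 CPM, with a log2 fold change of -0.28 (SE 0.28). In both the groups overlapped. With single tumors left out, the value of Psmg1 ran from 0.30 (without control tumor 1) to 0.97 (without control tumor 2) and that of Psmg2 from -0.48 (without SS tumor 2) to -0.048 (without control tumor 2). Of the activators that interferon does not induce, Psme3 had a log2 fold change of -0.13 (SE 0.10) and Psme4 of 0.16 (SE 0.10).

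**Figure D5:**
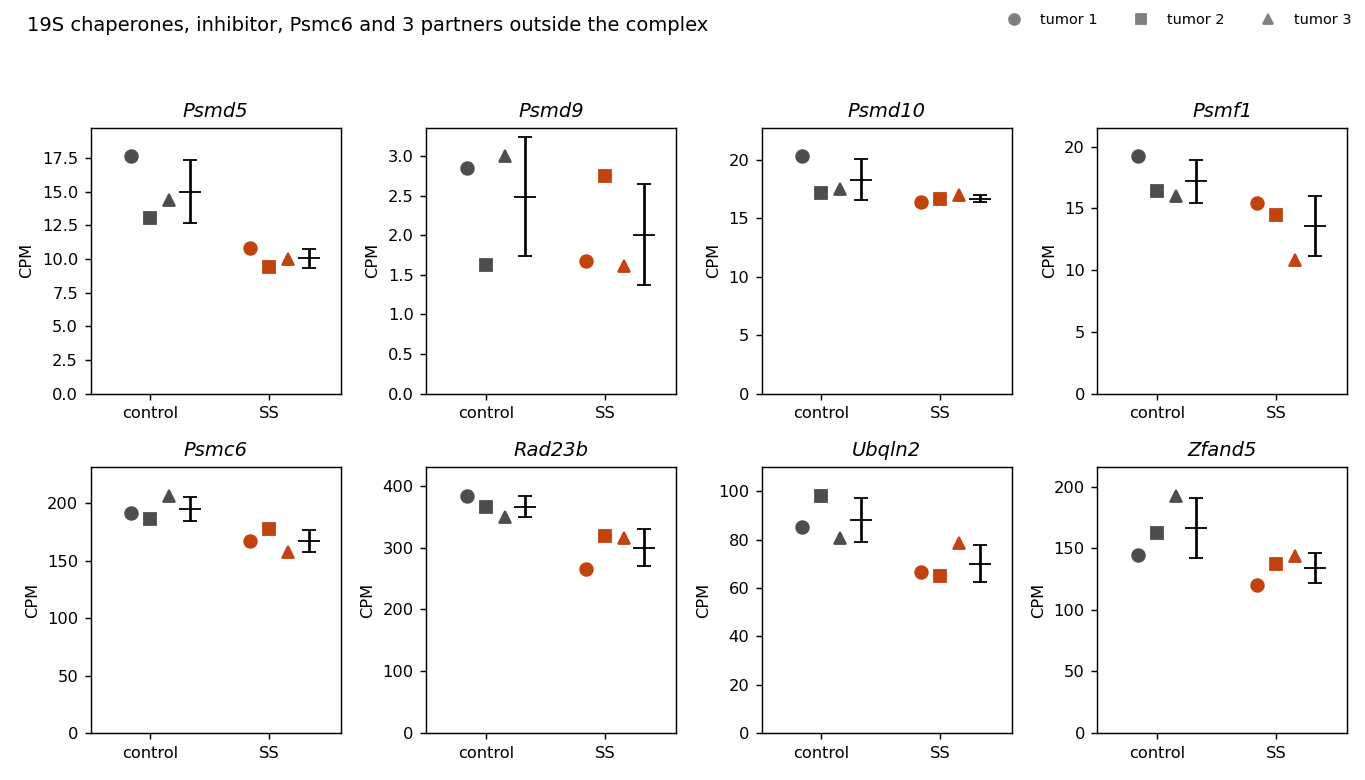
CPM in each tumor is plotted for the 19S assembly chaperones Psmd5, Psmd9 and Psmd10, the inhibitor Psmf1, the ATPase Psmc6 and the partners Rad23b, Ubqln2 and Zfand5, with the mean and SD of each group (n = 3). For Psmd5, SS tumors lie from 9.42 to 10.8 CPM and control tumors from 13.0 to 17.6 CPM, and for Psmd9 the groups overlap.

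Of 17 partners of the proteasome that the symbol rule does not take, 15 were tested, 4 with fold changes above 0 and 11 below, with a median of -0.093 on the log2 scale. None passed adjustment, and 3 were lower at an unadjusted p under 0.05, where the background was 3.16%. Sem1, a small subunit of the 19S lid, was higher in every SS tumor than in every control tumor, at 295, 337 and 320 CPM in control tumors and at 396, 347 and 345 CPM in SS tumors (log2 fold change 0.19, SE 0.10). Rad23b, a shuttle that carries ubiquitin chains to the proteasome, was at 384, 366 and 349 CPM in control tumors and at 265, 319 and 315 CPM in SS tumors (log2 fold change -0.29, SE 0.11). Ubqln2, another shuttle, was at 85.1, 98.2 and 80.6 CPM against 66.6, 64.9 and 78.7 CPM (log2 fold change -0.33, SE 0.13), and Zfand5, which binds and activates the 26S complex, at 144, 162 and 193 CPM against 120, 138 and 143 CPM (log2 fold change -0.32, SE 0.13). The groups did not overlap for any of the 3, which were named for their unadjusted p. Over all genes tested, every SS tumor was below every control tumor for 6.4% and above for 6.51%.

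Genes that control the members were also compared. The 9 genes around the transcription factors Nrf1 (Nfe2l1) and Nrf2 (Nfe2l2), which drive constitutive subunit genes, had a median log2 fold change of 0.030, and none reached an unadjusted p under 0.05. Nfe2l1 was at 342, 319 and 441 CPM in control tumors and at 301, 395 and 374 CPM in SS tumors, with overlapping groups. Ddi2, the protease that activates Nrf1, was at 69.1, 82.5 and 82.0 CPM against 100.4, 83.0 and 87.8 CPM, and Mafg, a small Maf partner of both factors, at 2.13, 1.87 and 1.93 CPM against 3.19, 2.86 and 2.70 CPM. In both, every SS tumor was above every control tumor, as for 6.51% of all genes tested. Of the 10 genes that lead from interferon-gamma to the inducible subunits, 6 were tested, with 0 at an unadjusted p under 0.05 and a median of 0.039. Irf1 was at 54.8, 54.0 and 66.4 CPM in control tumors and at 65.6, 68.6 and 62.3 CPM in SS tumors (log2 fold change 0.16, SE 0.12), with overlapping groups. Irf8, which had the largest change of the tested genes of that list, was at 8.22, 11.8 and 11.3 CPM against 7.77, 8.47 and 6.08 CPM (log2 fold change -0.49, SE 0.24), also with overlapping groups. The 6 genes of ubiquitin and its activating enzymes also had 0 at that threshold.

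In bulk tumors, fewer cells of a type and less RNA per cell cannot be told apart, and the inducible members are abundant in leukocytes. The summed level of 9 leukocyte markers was 961 to 1109 CPM in control tumors and 1062 to 1266 CPM in SS tumors, and that of 7 macrophage markers 716 to 851 CPM against 756 to 940 CPM. Lcp1 made up most of the leukocyte sum, which without it was 297 to 317 CPM in control tumors and 290 to 360 CPM in SS tumors. SS tumor 1 was the highest tumor in both sums, as it was for 4 of the inducible members. The summed level of 5 fibroblast markers was lowest in that tumor, at 8783 CPM against 12022 to 18167 CPM in the other tumors. Col1a1 and Col1a2 made up most of that sum, at 7057 and 1719 CPM in SS tumor 1. The 4 endothelial markers summed to 39.7 to 68.2 CPM in control tumors and 44.0 to 93.5 CPM in SS tumors, and the 5 adipocyte markers to 0 to 40.4 CPM against 0.085 to 16.2 CPM. Of the macrophage genes 7 of 7 and of the leukocyte genes 5 of the 8 tested had fold changes above 0. Of the dendritic cell list 6 of 7 genes were in the table, summing to 52.5 to 83.7 CPM in control tumors and 95.5 to 184 CPM in SS tumors, most of it from Itgax (49.4 to 66.9 against 89.6 to 173 CPM, log2 fold change 1.24, edgeR adjusted p = 0.679, groups not overlapping), while Xcr1 was at 0.55 CPM or less. Of the 4 dendritic cell genes tested, 2 had fold changes above 0 and 2 below, and without Itgax the sum was 3.05 to 16.8 CPM in control tumors and 5.92 to 11.3 CPM in SS tumors. For T and NK cells 2 of 9 markers and for B cells 1 of 4 were in the table. The T cell marker Cd3e was at 7.63 to 45.8 CPM in control tumors and at 4.06 to 19.9 CPM in SS tumors. The part of any of these cells in the values of Psmb8, Psmb9, Psmb10, Psme1 and Psme2 was not tested. Of 6 epithelial markers 2 had fold changes above 0 and 4 below, and Krt5 ran from 0 to 73.1 CPM and Krt14 from 6.44 to 45.8 CPM, both highest in control tumor 1. Krt8 was at 417 to 544 CPM, Krt18 at 91.8, 98.1 and 80.4 CPM in control tumors and 70.0, 59.5 and 61.9 CPM in SS tumors (log2 fold change -0.50, groups not overlapping, unadjusted edgeR p under 0.05, edgeR adjusted p = 0.760) and Epcam at 2.98 CPM or less. By pathology, triple-negative tumors lack estrogen and progesterone receptors and HER2 amplification. The RNA of Esr1, Pgr and Erbb2, the genes of these receptors, summed to 23.4 to 30.5 CPM, most of it from Erbb2 (17 to 22 CPM).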

How the data were processed

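RNA of 6 C0321 tumors was sequenced as stranded polyadenylated libraries in pairs of 75 bases. The authors deposited estimated counts for 20648 RefSeq transcripts, unnormalized, after removing entries with very low values (each transcript sums to at least 10). Submitters' processing notes name CASAVA 1.8.1, Bowtie2 2.2.5, STAR 2.5.3a and mm10, and the counting tool is not given in the sources used here. The study itself used quantile normalization.

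Transcripts were summed by symbol and rounded, after 22 symbols stored as dates were restored from accessions. Totals of 8468914 to 24441522 make 3 counts equal 0.123 to 0.354 CPM, and this covers counting error only. Counts were scaled by TMM (factors 0.981 to 1.03), filtered with filterByExpr and tested by quasi-likelihood in edgeR 4.0.16 (R 4.3.3), and the p-values of 10902 genes were adjusted after Benjamini and Hochberg. Alternatives were DESeq2 1.42.0, limma 3.58.1, other scalings and filters, a replicate block, another denominator for the ratios and leaving out each tumor. Exact permutation tests used scipy 1.17.1. The script was tested on simulated data.

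Members and gene lists were chosen with earlier results of these data known, and summing Psme2 with Psme2b was added after seeing the data. Named genes were the 5 inducible members and Psmb5, Psmb6 and Psmb7, members under an unadjusted p of 0.05, the 5 highest and 5 lowest fold changes, the 3 most abundant and the untested. Psmc2, Psmc6, Psmd10, Psmd14, Psme2b, Psme3, Psme4, Psmb1, Psma3, other ends of a range and genes outside the members were named after their values were seen.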

Additional observations from a re-analysis of the deposited data

How the results depend on the processing

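No member passed adjustment under any alternative, where DESeq2 gave no adjusted p for Psmb9, Psmb10, Psmd9 and Psmg2. A second member, Psmc6, was lower at an unadjusted p under 0.05 with RLE, upper-quartile or no scaling factors, which gave 2 members each. The count of members whose groups do not overlap was 1 for the higher ones with upper-quartile factors and, for the lower ones, 7 with RLE, 7 with upper-quartile factors, 6 with limma on quantile-normalized values and 8 with library totals only, against 5. Leaving out each tumor in turn gave 0 to 2 members higher and 0 to 2 lower at an unadjusted p under 0.05, where the higher ones were Psmg1 without control tumor 2, Psme2 without SS tumor 2, and Psmb8 and Psmb10 without SS tumor 3, and the count of 0 lower came without control tumor 1. The same step gave 3 to 8 members higher and 7 to 9 lower with groups that do not overlap, since fewer tumors are compared. The share over all genes whose groups do not overlap is given for the main setting only, so these counts have no background. At an unadjusted p under 0.05, edgeR gave 698, 714 and 727 of 10902 genes with RLE, upper-quartile and no scaling factors. With a tumor left out it gave from 516 of 11295 (control tumor 3) to 877 of 11228 (control tumor 1). The log2 ratio of Psmb10 to Psmb7 ran from -0.097 (without control tumor 3) to 0.44 and was -0.074 without SS tumor 2. Log2 fold changes turned for Psmb8, with a lowest value of -0.029 when SS tumor 1 was left out and a highest of 0.49 when SS tumor 3 was, and for Psmb5, with a lowest of -0.16 (SS tumor 1 left out), a highest of 0.057 (SS tumor 2) and 0.034 (control tumor 2). The other 99 values of named genes with a tumor left out and all 153 under other settings kept their direction, and the causes were not tested.

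Control and SS tumors share replicate numbers, and the labels do not say whether these pair the tumors. The correlations of same-numbered deviations were 0.116, 0.021 and 0.077, within the range of the other pairs (-0.19 to 0.17). With 3 tumors a group, these values cannot decide whether the tumors are paired. With the replicate block, 0 members passed adjustment and 1 was lower at an unadjusted p under 0.05, and the median of the inducible members was 0.32. With 3 tumors a group, the 95% interval of 5 of the 45 members does not exclude a 2-fold change, and Psmd9, Psmb9 and Psmg1 have the largest standard errors.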
